A study of Drosophila melanogaster with 8 samples.

Results

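Aminoacyl-tRNA synthetases are the enzymes that load each amino acid onto its matching transfer RNA (tRNA), and 18 of their genes were followed in asense mutant neural precursors of the Drosophila melanogaster embryo. The genes were chosen by name alone, as every probe whose annotated symbol has the form of a synthetase (AlaRS, TrpRS-m). They are 18 of 13819 features, a feature being a gene or an unnamed probe, with 1 probe per synthetase gene. The set holds 8 genes without the suffix -m, called cytosolic here, and 10 genes with it, whose products work in mitochondria. A gene was tested when 4 or more of the 5 pairs of mutant and control samples measured it, which held for 17 of the 18 genes, 8 cytosolic and 9 mitochondrial. GluRS-m, for mitochondrial glutamyl-tRNA, was measured in 2 pairs and was not tested, with log ratios of -0.46 in pair 4 and -0.35 in pair 6. Another 14 synthetase genes of the gene table that carry such names were not analysed here.

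The cells came from the ventral nerve cord of stage 11 embryos and mixed neural stem cells (neuroblasts) with their intermediate progeny (ganglion mother cells), which divide a last time. Mutant cells were ase1/ase1. Control cells were ase1/FM7-KrGFP, so they carried 1 copy of the mutant allele over a balancer chromosome with a GFP marker, and both groups shared that allele. Embryos of both genotypes were kept at 25 °C, and 50 to 100 cells were lysed per sample, so each ratio rests on amplified cDNA of few cells. Mutant and control were hybridised together on 8 two-colour arrays, which form 5 pairs numbered 1, 3, 4, 5 and 6. Pairs 1, 4 and 5 have 2 arrays each, which were averaged.

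Synthetases pair an amino acid with its tRNA in an ATP-driven reaction, and the accuracy of the genetic code rests on them. They fall into class I and class II, which have unrelated folds of the catalytic domain, and each amino acid belongs to one class in nearly all organisms. Mitochondria translate their own messages with separate synthetases, which are encoded in the nucleus and imported, although some genes serve both compartments. In the cytosol of animals several synthetases are bound into a multisynthetase complex held together by scaffold proteins (AIMPs). Asense itself is a transcription factor of neural precursors.

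All values are log2 ratios, mutant over control. This direction is likely rather than stated: asense was far below 0 on each of the 8 arrays, from -6.50 to -4.81, whichever dye the mutant carried. A gene was called when the limma test of its mean ratio against 0 had a Benjamini-Hochberg adjusted p below 0.05 over all 8295 features tested. By that rule 1517 features (18.3%) were called, 578 higher (6.97%) and 939 lower (11.3%). After centring every array on the median of what it measured, 805 (9.7%) were called higher and 707 (8.52%) lower. The arrays measured 8200 to 9276 probes each, and the small number of pairs limits the precision. The labels do not say whether the pairs came from separate embryos, so the p-values reflect the spread between these pairs, which may be partly technical.

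In mutant cells 2 of the 17 tested synthetase genes fell, 1 rose and 14 did not pass the test. The genes that fell were LeuRS and IleRS, both cytosolic and of class I, and the gene that rose was AspRS-m, mitochondrial and of class II. The 3 calls make up 17.6% of the tested synthetase genes, next to 18.3% of all features, so the set was called about as often as the background. With the arrays centred, 2 were called higher (AlaRS and AspRS-m) and 1 lower (LeuRS). The median log ratio over the 17 genes was -0.19, and that over all features -0.07. Of the 17 genes 12 lay below 0, where 57.4% of all features did, and 7 had a mean of at least 0.4 in size, where 34.1% of all features did. In a mixed sample, fewer cells of a type and less RNA per cell cannot be told apart.

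**Figure D1:**
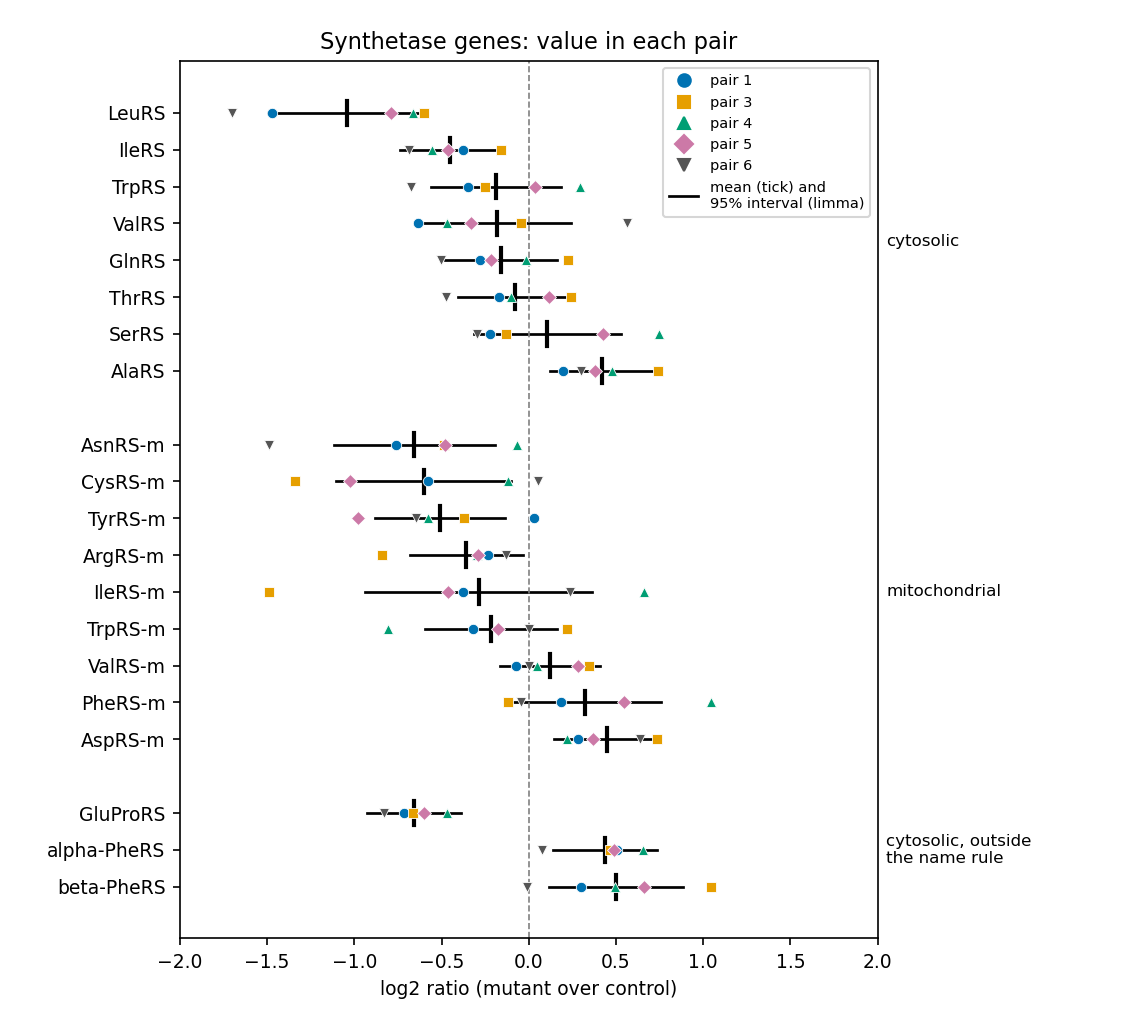
Log2 ratio (mutant over control) of each tested synthetase gene in the 5 pairs (coloured symbols), with the mean (tick) and the 95% interval of the limma fit (line). LeuRS, IleRS, AsnRS-m, ArgRS-m and GluProRS have all pairs below 0, and AlaRS, AspRS-m and alpha-PheRS have all pairs above 0.

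Leucyl-tRNA synthetase (LeuRS), which in yeast and mammals also signals leucine supply to the TOR kinase, had the largest log ratio by size in the set. Its values were -1.47 in pair 1, -0.60 in pair 3, -0.66 in pair 4, -0.79 in pair 5 and -1.70 in pair 6. Every pair lay below 0, and pairs 1 and 6 were the lowest. LeuRS fell by 1.04 ± 0.51 (SD, n = 5 pairs, limma adjusted p = 0.0125, 95% interval from -1.49 to -0.60), which leaves 0.485 of the control level in mutant cells. It was not measured on array a of pair 1, so that pair rests on array b. Its arrays of pair 4 differed, with -0.06 on array a and -1.27 on array b. The call was kept whichever pair was left out (limma adjusted p from 0.0221 to 0.0387) and was lost with array a of each pair alone (adjusted p = 0.141) or with exact zeros kept as values (0.0977).

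Isoleucyl-tRNA synthetase (IleRS), which like LeuRS handles a branched-chain amino acid and edits mischarged tRNA, showed a smaller decrease. It had -0.38, -0.16, -0.55, -0.46 and -0.69 in pairs 1, 3, 4, 5 and 6. All 8 arrays lay below 0, with pair 3 the nearest to it. IleRS fell by 0.45 ± 0.20 (SD, n = 5, limma adjusted p = 0.0444), just inside the threshold. The call was lost without pair 1 (adjusted p = 0.0961), pair 4 (0.121), pair 5 (0.127) or pair 6 (0.0812), and with the arrays centred (0.0739).

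The other 3 cytosolic class I genes had means between -0.19 and -0.16 and did not pass. Tryptophanyl-tRNA synthetase (TrpRS) averaged -0.19 ± 0.37 (SD, n = 5, limma adjusted p = 0.431), with pairs from -0.68 to 0.30. Valyl-tRNA synthetase (ValRS) averaged -0.18 ± 0.47 (adjusted p = 0.506). It was below 0 in 4 pairs and at 0.56 in pair 6. Glutaminyl-tRNA synthetase (GlnRS) averaged -0.16 ± 0.28 (adjusted p = 0.446), with 1 pair above 0. The 95% intervals of these 3 genes reached down to -0.56, -0.61 and -0.48, so decreases as large as that of IleRS lie within them.

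Of the 3 cytosolic class II genes none was called, and 1 came close to the threshold on the higher side. Alanyl-tRNA synthetase (AlaRS), which recognises its tRNA by a single wobble pair in the acceptor stem, had 0.19, 0.74, 0.48, 0.38 and 0.30 in pairs 1, 3, 4, 5 and 6. Each of its 8 arrays was above 0. The mean was 0.42 ± 0.21 (SD, n = 5, limma adjusted p = 0.0568), and AlaRS passed with the arrays centred (0.50, adjusted p = 0.0336). Seryl-tRNA synthetase (SerRS) averaged 0.11 ± 0.46 (adjusted p = 0.707) and divided the pairs, at 0.75 in pair 4 and 0.43 in pair 5 but below 0 in pairs 1, 3 and 6. Threonyl-tRNA synthetase (ThrRS) averaged -0.08 ± 0.28 (adjusted p = 0.718).

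Among the 9 mitochondrial genes 1 rose, 0 fell and 8 did not pass in limma, where 6.97% of all features were called higher. An unadjusted p under 0.05 was found for 5 of the 9 and for 36.1% of all features. AspRS-m, whose human counterpart is linked to a white matter disease, had 0.28, 0.74, 0.22, 0.37 and 0.64 in pairs 1, 3, 4, 5 and 6. All pairs were above 0, but pair 5 joined -0.46 on array a with 1.20 on array b, and pair 1 rests on array b alone. With array a of each pair alone, which leaves 4 pairs, the mean was 0.29 (limma adjusted p = 0.5). AspRS-m rose by 0.45 ± 0.23 (SD, n = 5, limma adjusted p = 0.0493), at the edge of the threshold. Leaving out any 1 pair ended the call. The adjusted p was then 0.0884 (pair 1 left out), 0.12 (pair 3), 0.0818 (pair 4), 0.121 (pair 5) or 0.0912 (pair 6).

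Asparaginyl, cysteinyl and tyrosyl enzymes of mitochondria had the lowest means of the mitochondrial set, and none of them passed in the fit over pair means. AsnRS-m had -0.76, -0.48, -0.07, -0.48 and -1.49 in pairs 1, 3, 4, 5 and 6. It was below 0 on all 8 arrays, but its pairs ranged widely, for a mean of -0.66 ± 0.53 (SD, n = 5, limma adjusted p = 0.0565). CysRS-m had -0.58, -1.34, -0.12, -1.03 and 0.05 in the same pairs. Its pair 5 value joined -2.11 on array a with 0.06 on array b, and its mean was -0.60 ± 0.59 (adjusted p = 0.0898). TyrRS-m had 0.03, -0.37, -0.58, -0.98 and -0.65, with pair 1 standing alone above 0 and a mean of -0.51 ± 0.37 (adjusted p = 0.0632). TyrRS-m passed without pair 1 (-0.64, adjusted p = 0.0467) and with array b of each pair that has one (-0.64, adjusted p = 0.0297). With the 8 arrays entered singly and the pair as a random block, AsnRS-m (-0.55, adjusted p = 0.0208) and TyrRS-m (-0.51, adjusted p = 0.0326) were called lower and AlaRS higher (0.39, adjusted p = 0.0204). The correlation between repeat arrays that this fit estimated was -0.20. A correlation below 0 makes repeat arrays count for more than separate replicates would, so these adjusted p-values are likely too small.

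The remaining 5 mitochondrial genes lay nearer to 0 or spread over both signs. The arginyl enzyme gene ArgRS-m was below 0 in all 5 pairs, at -0.36 ± 0.28 (SD, n = 5, limma adjusted p = 0.109). IleRS-m had the widest spread of the 17 genes, from -1.49 in pair 3 to 0.66 in pair 4, around a mean of -0.29 ± 0.81 (adjusted p = 0.494). TrpRS-m averaged -0.22 ± 0.39 (adjusted p = 0.376), and ValRS-m averaged 0.12 ± 0.18 (adjusted p = 0.512). The phenylalanyl enzyme gene PheRS-m, whose product works as a single chain where the cytosolic enzyme is built of alpha and beta subunits, averaged 0.32 ± 0.48 (adjusted p = 0.25). It reached 1.05 in pair 4 and was below 0 in pairs 3 and 6.

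Cytosolic and mitochondrial genes were then set side by side. The median log ratio was -0.17 over the 8 cytosolic genes and -0.29 over the 9 mitochondrial genes. Their order changed between pairs. The cytosolic median was -0.31 in pair 1, -0.09 in pair 3, -0.06 in pair 4, -0.09 in pair 5 and -0.49 in pair 6. The mitochondrial median was -0.23, -0.37, -0.07, -0.29 and 0.00 in the same order. In pairs 1 and 6 the cytosolic median was the lower of the pair of medians, and in pairs 3, 4 and 5 the mitochondrial one was. The pair medians averaged -0.21 ± 0.19 for cytosolic and -0.19 ± 0.15 for mitochondrial genes (SD, n = 5). These SDs give the spread between pairs within each group, not that of the gap within pairs, which was not tested.

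**Figure D2:**
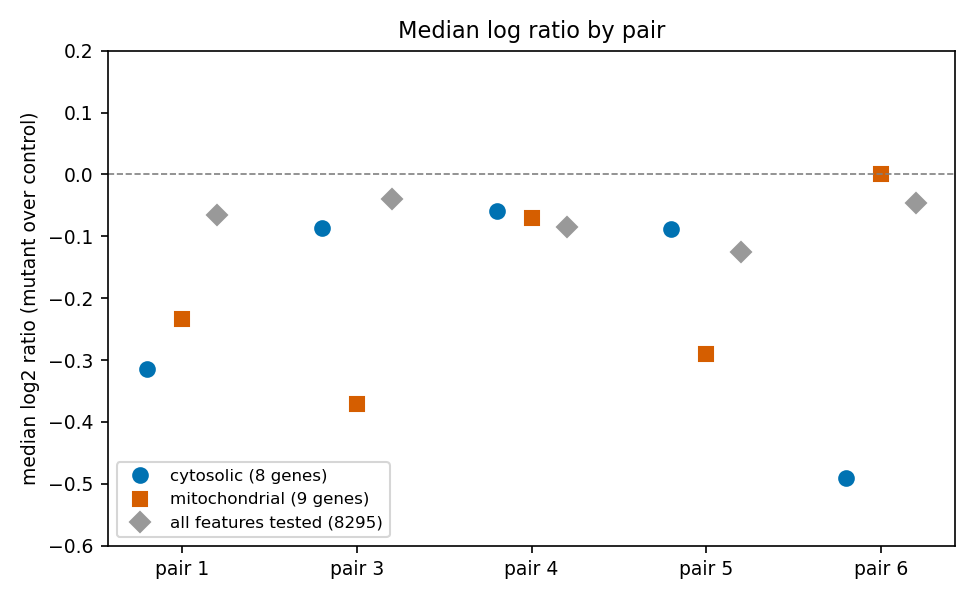
Median log2 ratio (mutant over control) of the cytosolic genes, the mitochondrial genes and all features tested, in each of the 5 pairs. The cytosolic median is lowest in pair 6, at -0.49, where the mitochondrial median is 0.00.

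A cytosolic and a mitochondrial gene for the same amino acid were both tested for isoleucine, tryptophan and valine, which gave 3 comparisons. ValRS minus ValRS-m was -0.30 ± 0.49 (SD, n = 5), with ValRS lower in 4 of 5 pairs and differences from -0.62 to 0.56. The two-sided exact sign-flip permutation test gave p = 0.25, or 0.75 after Benjamini-Hochberg adjustment over the 3. IleRS minus IleRS-m was -0.16 ± 0.995 (exact permutation p = 0.875, adjusted 1), and TrpRS minus TrpRS-m was 0.03 ± 0.70 (exact permutation p = 1, adjusted 1). With 5 pairs this exact permutation test cannot go below p = 0.0625. For isoleucine single pairs lay between -1.21 and 1.33, so that differences of either sign were within the spread.

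Class I and class II genes had their means mostly on opposite sides of 0. Of 11 tested class I genes 10 had a mean below 0, where 57.4% of all features did, with a median of -0.29. In class I 2 genes, LeuRS and IleRS, were called lower, next to 11.3% of all features, and 1 with the arrays centred. Of 6 tested class II genes 4 had a mean above 0, where 3532 of 8295 features did, with a median of 0.21. In class II 1 gene was called higher (AspRS-m), next to 6.97% of all features. The 2 below 0 were ThrRS and AsnRS-m, whose mean of -0.66 was the lowest of the 17 genes after LeuRS. With the arrays centred 2 class II genes were called higher, next to 9.7% of all features. The counts above and below 0 did not change with centring in either class. The class I median was below 0 in each pair, from -0.35 in pair 1 to -0.13 in pair 6. The median over all features was below 0 in each pair as well, from -0.13 in pair 5 to -0.04 in pair 3. The class II median ran from -0.17 in pair 6 to 0.38 in pair 5 and was 0.01 in pair 1. The difference between the classes was not tested.

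Members of the multisynthetase complex had a lower median than the other cytosolic genes, a difference that was not tested. GlnRS, IleRS and LeuRS belong to the complex, and their median was -0.45, beside -0.08 for the 5 cytosolic genes outside it (AlaRS, SerRS, ThrRS, TrpRS and ValRS). These complex members are all of class I, while AlaRS, SerRS and ThrRS are of class II, so complex and class overlap here. Among class I genes, LeuRS and IleRS were lower than TrpRS (-0.19) and ValRS (-0.18), and GlnRS (-0.16) was not. A 4th member of the complex, GluProRS, which joins glutamyl and prolyl synthetases in one protein, has a symbol outside the name rule. It had -0.72, -0.66, -0.47, -0.60 and -0.83 in pairs 1, 3, 4, 5 and 6. These values lay close together, and all 8 of its arrays were below 0. In mutant cells GluProRS was lower, with a mean of -0.66 ± 0.13 (SD, n = 5, limma adjusted p = 0.0111), and kept its call whichever pair was left out (adjusted p from 0.0211 to 0.0431). It lost the call with array a of each pair alone (adjusted p = 0.0888). With it, 3 of the 4 complex members tested fell and 0 rose, next to 11.3% of all features called lower. With the arrays centred LeuRS (limma adjusted p = 0.017) and GluProRS (0.0174) kept the call and IleRS (0.0739) lost it. ArgRS, AspRS, LysRS and MetRS, which belong to the complex as well, were not analysed here.

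None of the 3 scaffold genes of the complex passed the test, with the arrays centred either. AIMP1 had -0.48, -0.13, -0.31, -0.31 and -0.36 in pairs 1, 3, 4, 5 and 6, below 0 in each of them, with a mean of -0.32 ± 0.13 (SD, n = 5, limma adjusted p = 0.0932). AIMP2 averaged 0.05 ± 0.25 (adjusted p = 0.814) and AIMP3 averaged 0.14 ± 0.12 (adjusted p = 0.426).

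The subunits of the cytosolic phenylalanyl enzyme, alpha-PheRS and beta-PheRS, also fall outside the name rule and lay on the higher side. The alpha subunit had 0.51, 0.46, 0.65, 0.49 and 0.08 in pairs 1, 3, 4, 5 and 6, for a mean of 0.44 ± 0.21 (SD, n = 5, limma adjusted p = 0.0508). The beta subunit averaged 0.50 ± 0.39 (adjusted p = 0.0720). Its pair 4 value joined -0.76 on array a with 1.76 on array b. With array a of each pair alone its mean was 0.29 (adjusted p = 0.535). Both subunits were lowest in pair 6, where beta-PheRS was at -0.01. Each passed with the arrays centred (adjusted p = 0.0336 and 0.0489). With the arrays also scaled, alpha-PheRS passed (0.0329) and beta-PheRS did not (0.07155). With these 3 genes added, 3 of 20 synthetase genes fell and 1 rose, or 20% called next to 18.3% of all features. With the arrays centred 4 of the 20 were called higher and 2 lower, next to 9.7% and 8.52% of all features. The balance over all features turned the same way, from 578 higher and 939 lower to 805 higher and 707 lower.

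Repeat arrays of a pair showed how far single values scatter. Over 48 couples of array a and array b, the 17 genes had a median difference of 0.39 in size, and 17 couples had opposite signs. The median difference was 0.35 for the cytosolic genes (23 couples) and 0.50 for the mitochondrial genes (25 couples), beside 0.48 over all features. Differences above 1 were found in 2 cytosolic couples (LeuRS in pair 4 and TrpRS in pair 5) and 6 mitochondrial couples. These were 8.7% of the cytosolic and 24.0% of the mitochondrial couples, beside 18.3% over all features. The widest was that of CysRS-m in pair 5, at 2.17. Couples of opposite sign were 44.0% of the mitochondrial and 26.1% of the cytosolic ones, and 40.8% over all features.

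**Figure D3:**
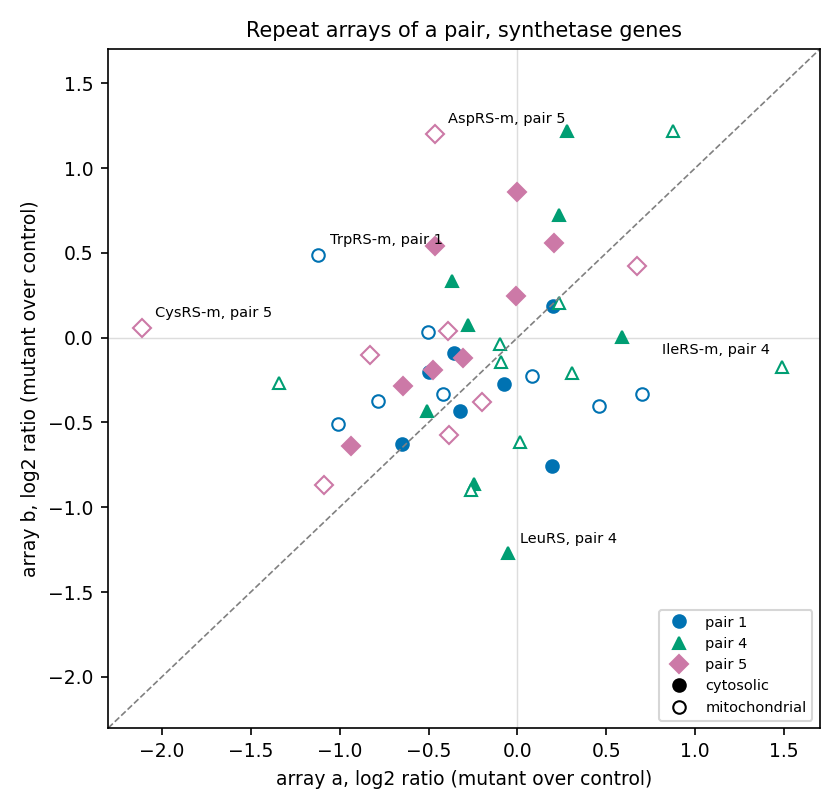
Log2 ratio (mutant over control) of the tested synthetase genes on array a (x axis) and array b (y axis) of pairs 1, 4 and 5, with the line of equal values dashed. Mitochondrial genes (open) hold the points farthest from the line, led by CysRS-m in pair 5 with a difference of 2.17.

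Of the 17 genes 6 had the same sign in all 5 pairs (LeuRS, IleRS, AlaRS, AsnRS-m, ArgRS-m and AspRS-m), where 34.5% of all features had the same sign in their measured pairs. On every measured array the sign was the same for 4 (LeuRS, IleRS, AlaRS and AsnRS-m), where 16.2% of all features did so. Dye orientation gave no call for any synthetase gene in limma, and 0 of 8295 features had a dye term past the threshold. The dye term set pairs 1 and 3 against pairs 4, 5 and 6. With so few pairs it could miss a dye effect, so the absence of one cannot be read from it. The widest gap between orientations was in IleRS-m, at -0.93 over pairs 1 and 3 with the mutant in Cy5 and 0.14 over pairs 4, 5 and 6 with the mutant in Cy3 (limma adjusted p of the dye term = 0.948). LeuRS had -1.04 and -1.05 in these orientations.

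The genes next to the called members did not pass the test. Hem and Ten-m flank IleRS and had log ratios of 0.10 and -0.24 (limma adjusted p = 0.65 and 0.444). CG17593, beside LeuRS, had -0.07, and Cse1, beside AspRS-m, had -0.55 (adjusted p = 0.0513). The neighbours on the other side of LeuRS and AspRS-m were not tested.

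**Figure D4:**
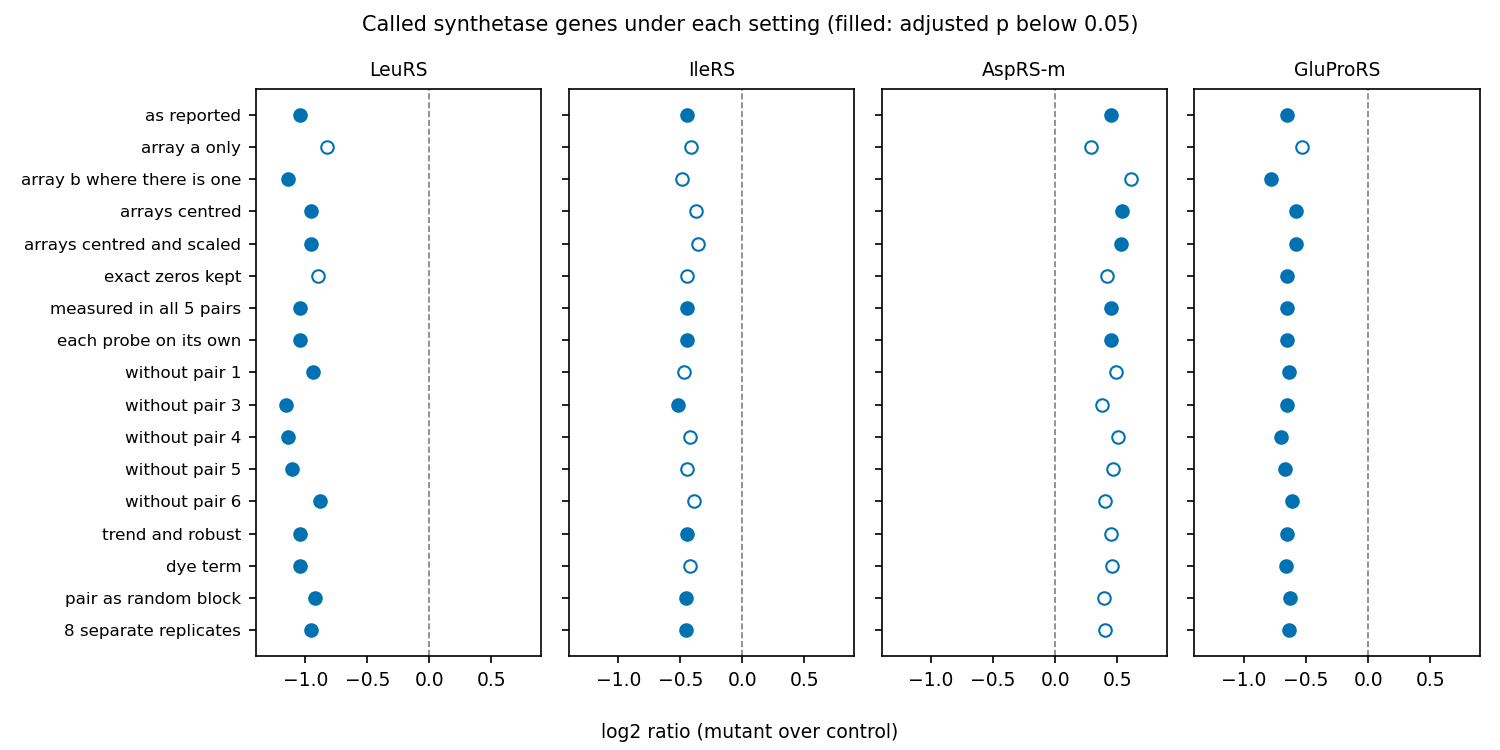
Log2 ratio (mutant over control) of LeuRS, IleRS, AspRS-m and GluProRS under each way of processing, one row per setting. Filled circles passed the limma test, open circles did not, and AspRS-m is open in every row that leaves out a pair.

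Genes that make or use charged tRNA were read from lists beside the synthetases. The largest mean in them was that of a subunit of the mitochondrial amidotransferase, which in bacteria and mitochondria turns tRNA charged with glutamate into tRNA charged with glutamine. This gene, GatB, had 0.87, 0.89, 1.46, 0.76 and 1.27 in pairs 1, 3, 4, 5 and 6. All 8 arrays were above 0. GatB rose by 1.05 ± 0.30 (SD, n = 5, limma adjusted p = 0.00457), which makes 2.07 times the control level, and kept its call in each of the 16 other settings. The subunit gene GatA averaged 0.11 ± 0.55 (adjusted p = 0.723), with pair 5 at -0.57 and pair 6 at 0.85.

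Of 4 measured cytosolic elongation factor genes 1 rose and 0 fell, where 6.97% of all features were called higher. It was eEF1gamma, a subunit of the factor that recharges eEF1A with GTP, at 0.34, 0.36, 0.60, 0.64 and 0.69 in pairs 1, 3, 4, 5 and 6 (0.52 ± 0.17, SD, n = 5, limma adjusted p = 0.0236). Its pair 4 value joined -0.64 on array a with 1.84 on array b, and with array a of each pair alone the mean was 0.24 (adjusted p = 0.509). With the pair as a random block it did not pass (adjusted p = 0.0551), and it lost the call without pair 1 (adjusted p = 0.0501), pair 4 (0.0763) or pair 5 (0.0913). The isoform gene eEF1alpha2, which delivers charged tRNA to the ribosome, averaged -0.41 ± 0.45 and did not pass (adjusted p = 0.145). None of 4 mitochondrial elongation factor genes passed, but mEFTu1, mEFTu2 and mEFTs each averaged 0.42 or 0.43 (adjusted p = 0.0774, 0.0666 and 0.0636). With the arrays centred these 3 were called higher (adjusted p from 0.0354 to 0.0462), where 9.7% of all features were. The 4th gene, mEFG1, averaged -0.20 ± 0.52 (limma adjusted p = 0.506) and was below 0 in 4 of 5 pairs.

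Of 13 measured genes of tRNA maturation and modification 2 rose, 2 fell and 9 did not pass, against 18.3% of all features called. Tsen54, a subunit of the tRNA splicing endonuclease, rose by 0.55 ± 0.21 (SD, n = 5, limma adjusted p = 0.0241), and CG2100 rose by 0.54 ± 0.35 (adjusted p = 0.0475). Nsun2, a cytosine methyltransferase of tRNA, fell by 0.56 ± 0.22 (adjusted p = 0.0248). La, which binds the 3′ ends of new RNA polymerase III transcripts, fell by 0.54 ± 0.27 (adjusted p = 0.0342). With the arrays centred 4 of the 13 were called higher and 1 lower, next to 9.7% and 8.52% of all features. For Tsen54, pair 5 joined 1.05 on array a with -0.13 on array b, and with array b of each pair that has one the mean was 0.36 (adjusted p = 0.196). With array a of each pair alone La averaged -0.34 (adjusted p = 0.332). When 1 pair was left out, CG2100 passed in none of the 5 fits (adjusted p from 0.0638 to 0.133). Tsen54 and Nsun2 passed only without pair 6 (adjusted p = 0.0286 and 0.0442) and La only without pair 1 (0.0473).

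Of 7 measured genes of the response to amino acid shortage and translational stress 1 fell and 0 rose, where 11.3% of all features were called lower. It was eIF2Bepsilon, the catalytic subunit of the exchange factor of eIF2, at -0.40, -0.29, -1.01, -0.59 and -1.63 in pairs 1, 3, 4, 5 and 6 (-0.79 ± 0.55, SD, n = 5, limma adjusted p = 0.0361). It did not pass with the arrays centred (adjusted p = 0.0504), and with 1 pair left out it passed only without pair 3 (0.0430). Cryptocephal (crc), the fly ATF4, which in the fly and in mammals drives synthetase genes when amino acids run short, averaged -0.27 ± 0.43 (adjusted p = 0.289). The kinase genes Gcn2, which senses uncharged tRNA, and PEK averaged -0.14 and -0.06 and did not pass. The other 3 lay above 0 and did not pass: Shmt at 0.53 ± 1.13, Nmdmc at 0.41 ± 0.61 and trbl at 0.41 ± 0.38 (adjusted p = 0.345, 0.22 and 0.115). Asparagine synthetase (AsnS) and Thor, other known targets of this response, were not tested.

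**Figure D5:**
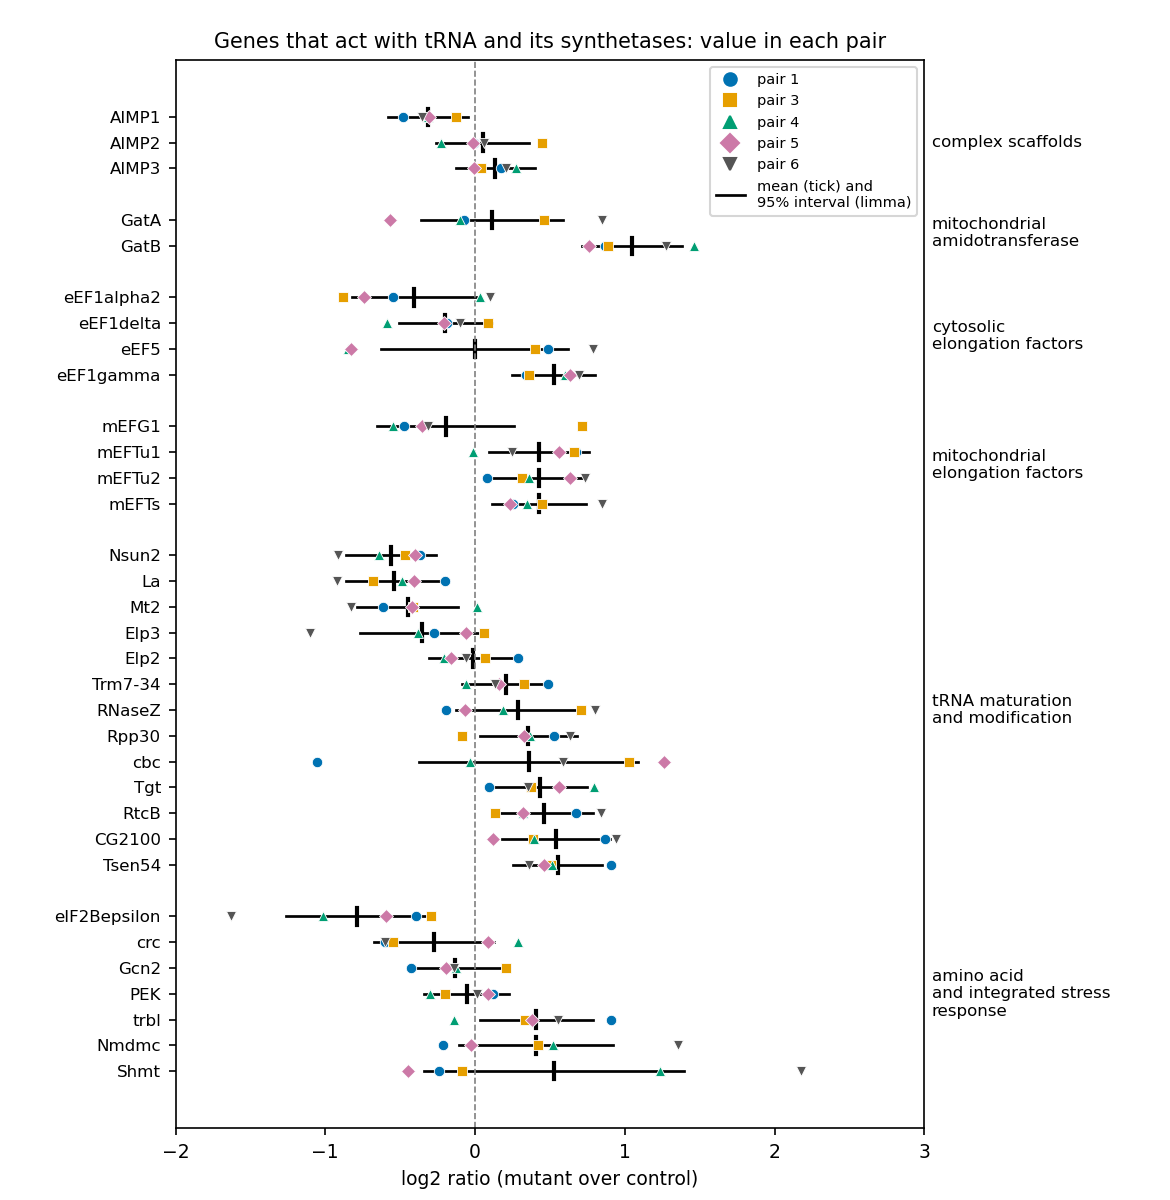
Log2 ratio (mutant over control) in each pair for genes that act with tRNA and its synthetases, by list, with the mean (tick) and the 95% interval of the limma fit (line). GatB has all pairs above 0, from 0.76 to 1.46, and eIF2Bepsilon has all pairs below 0.

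Marker genes of the sampled cells and of other cell types were read beside these, where 11.3% of all features were called lower and 6.97% higher (8.52% and 9.7% with the arrays centred). Leaving aside ase, the mutated gene that set the direction of the ratios, all 5 other neuroblast markers were measured and 2 fell (mira and klu). Of 3 ganglion mother cell markers 2 fell (pros and nerfin-1). Of 3 tested glial markers 3 fell, with list medians from -2.80 in pair 6 to -1.06 in pair 3. Of 2 tested neuron markers (elav and Appl) 2 fell, but 0 with the arrays centred. Of 3 mesoderm markers 2 fell, of 3 hemocyte markers 2 fell (1 with the arrays centred), of 2 ectoderm markers 2 rose, and the single tracheal marker tested did not pass. The part of these shifts in the synthetase values was not tested.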

How the data were processed

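Each of the 8 two-colour arrays held asense mutant and control RNA. Per the labels' protocols, the RNA was reverse transcribed, tailed, amplified by PCR and labelled with Cy3 or Cy5 by Klenow extension. The values the authors deposited are log ratios read as log2. Their base, background correction, normalization and centring were not given in the sources used here, and a natural log would make the folds larger. The largest size, 7.43, exceeds the 4.82 that base 10 would allow in a 16-bit scan. Exact zeros, 36.3% to 43.7% of an array, were taken as not measured. Spot intensities were not used here, so levels cannot be compared between genes. A RefSeq gene table (assembly Release 6 plus ISO1 MT) served to update symbols and find neighbours. It matched 12119 of 12658 probes with a single symbol.

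The source names hold 5 samples per genotype, although the series text mentions 8, so pairs served as replicates. Probes of a gene, then arrays a and b of a pair, were averaged. Pair means were fitted in limma 3.58.1 (R 4.3.3) by lmFit and eBayes, as a two-sided test against 0 with Benjamini-Hochberg adjustment over 8295 features. On simulated data of that size for the comparison of mutant with control, it called 67 of 100 shifts of 1, 95 of 100 shifts of 2 and 5 of 8095 unshifted features. Shifts smaller than 1, where all synthetase means but that of LeuRS lie, were not simulated. Far fewer features were shifted there than were called in the data. Every synthetase gene is named, as are both genes of an amino acid where both were tested, list members past the test, and other list members as values chosen after these were seen. The members and lists were chosen with earlier results of these data known. Alternatives changed the pairs and arrays used, centring, scaling, zeros, missing values, probe averaging, moderation, the dye term, membership and the reading of direction. Sequences and promoter motifs were not analysed here.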

Additional observations from a re-analysis of the deposited data

Results flagged for a closer look

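In 2 of the 27 sets of pair values examined, a single pair stood far apart. ArgRS-m had a log ratio of -0.84 in pair 3, where the nearest pair was at -0.30. Tsen54 had 0.91 in pair 1, where the nearest was at 0.52. Chance flags about 1 in 20 sets, which is 1.35 of the 27.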

How the results depend on the processing

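The count of synthetase genes called higher was 1. It was 0 with array a only, array b where there is one, zeros kept, trend and robust moderation, a dye term, or any 1 pair left out (0 to 0), and 2 with arrays centred or also scaled. With the pair as a random block or with 8 separate replicates it was 1, but that gene was AlaRS. AspRS-m did not pass in these settings (limma adjusted p = 0.0974 and 0.135). The count called lower was 2. It was 0 with array a only and zeros kept, 1 with centring, scaling or a dye term, and 1 to 2 with 1 pair left out. It was 4 (LeuRS, IleRS, AsnRS-m and TyrRS-m) with the pair as a random block or with 8 separate replicates. The latter setting was chosen after the data were seen, and both count repeat arrays of a pair as added evidence. The share of all features called in these settings is not given here, so the rise in the count cannot be set against it. The medians stayed below 0 in every setting run, between -0.20 and -0.07 for cytosolic and between -0.42 and -0.21 for mitochondrial genes. LeuRS was called in 14 of 16 other settings, IleRS in 6 and AspRS-m in 4. These counts take in each probe on its own and measured in all 5 pairs. For these genes, with 1 probe and values in all 5 pairs, both leave the log ratio unchanged by construction. Some genes that were not called changed sign: with 1 pair left out, ThrRS ran from -0.16 to 0.021, SerRS from -0.055 to 0.21 and IleRS-m from -0.52 to 0.014, above 0 without pair 6 for ThrRS and pair 3 for IleRS-m and below 0 without pair 4 for SerRS. SerRS was -0.10 with array a only, and TrpRS-m was 0.10 and ValRS-m -0.022 with array b. Read as Cy5 over Cy3, asense averaged 1.34 and limma called 0 features, with 117 at an unadjusted p under 0.05. The causes were not tested. Each ratio sets a mutant sample against its own control, so the test over pair means is paired by its construction. The pair entered as a random block only in the fit of that name, which took the 8 arrays singly.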
